A study of Mus musculus with 6 samples.

Results

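Single-exon unnamed loci are stretches of the mouse genome where reads were assembled into an unspliced transcript that carries no gene name. They were chosen from the assembled transcript tables by 3 criteria: an assembly identifier (MSTRG) with no gene name on any of its transcripts, 1 exon in every transcript, and a longest transcript of 200 nt or more. The rule gave 2483 loci of 53135 features in all, beside 519 unnamed loci with spliced transcripts and 49203 named genes, 16125 of which have only 1 exon. Each locus had 1 transcript, between 201 and 98145 nt long with a median of 427 nt, against a median of 1495 nt for the longest transcript of a named gene. The rule itself used no expression value. A locus enters the tables only where reads were assembled, so its presence there already depended on expression in the libraries that entered the assembly. Which libraries these were is not stated, and the bearing on the counts of rises and falls below was not tested. A further 16 single-exon unnamed loci were shorter, the longest of them 192 nt, and none of these reached a mean of 0.5 FPKM.

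Total RNA was sequenced from 6 libraries labelled as mouse Sertoli cells, which line the seminiferous tubules and nurse the germ cells. The series compares Sertoli cell lines that express a GFP reporter carried on the Y chromosome (GFP-positive, replicates 2, 4 and 7) with lines that do not (GFP-negative, replicates 9, 11 and M). Ribosomal RNA was removed and strand-marked libraries were made by the dUTP method, with no selection for polyadenylated RNA named in the labels. Whether the replicates were separate clones, cultures or animals, and the strain and age of the mice, is not stated in the labels. A p-value here therefore speaks of the spread among these 6 samples, part or all of which may be technical. Reads of GFP were not analysed here.

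The libraries held 8.25 to 11.8 Gb of aligned bases. Over all tested features 16.6% rose and 13.7% fell. Of the 12 listed Sertoli markers, all were in the tables and 11 passed the filter, of which 1 rose (Dmrt1) and 2 fell (Sox9 and Gata4). Their summed level was 1735 to 3528 FPKM in the GFP-positive and 799.9 to 3411 FPKM in the GFP-negative libraries. Of 10 germ cell markers, 7 passed the filter and 6 rose, with sums of 38.1 to 164 against 1.27 to 3.48 FPKM, and Prm1 and Prm2 were listed at 0 in all libraries. Of 4 fibroblast markers, 2 fell (Col1a1 and Pdgfrb), with sums of 10.8 to 19.7 against 19.2, 736.3 and 155.3 FPKM in GFP-negative 9, 11 and M. Col1a1 made up most of the sum in GFP-negative 11 and M (693.5 and 142.5 FPKM). Pdgfra did not pass (log2 difference -1.63, limma adjusted p = 0.0800), and Dcn leaned the other way without passing (0.96, adjusted p = 0.194). The part of these cell types in the results below was not tested, and in bulk RNA a change in the number of cells of a type and a change in RNA per cell cannot be told apart.

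Assemblers place unnamed single-exon transcripts wherever reads pile up outside the annotation. Known sources of such reads include small structured RNAs that annotations leave out, retrotransposed copies, enhancer and antisense RNAs, RNA that runs past the end of a gene, and intron fragments of unspliced precursors. Total RNA libraries keep all of these, including abundant RNA polymerase III products such as 7SK, which holds the elongation factor P-TEFb inactive.

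One of the 2 loci that hold most of the reads, MSTRG.21471, lies where an older reference annotation places this same RNA, and the other is MSTRG.4500. The tables are on mm39, for which no genome sequence was used here, so no sequence was read at the coordinates of a locus. In GENCODE M21, on GRCm38, the gene Rn7sk (7SK) lies between the same flanking genes and on the same strand as MSTRG.21471. The less abundant MSTRG.7526 has Gm24447 between its flanking genes. The first 280 bases of both reference RNAs, 5′ to 3′, are shown because reads from near-identical copies may be shared between loci. Capitals mark the stretch that aligns with the other RNA.

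Rn7sk: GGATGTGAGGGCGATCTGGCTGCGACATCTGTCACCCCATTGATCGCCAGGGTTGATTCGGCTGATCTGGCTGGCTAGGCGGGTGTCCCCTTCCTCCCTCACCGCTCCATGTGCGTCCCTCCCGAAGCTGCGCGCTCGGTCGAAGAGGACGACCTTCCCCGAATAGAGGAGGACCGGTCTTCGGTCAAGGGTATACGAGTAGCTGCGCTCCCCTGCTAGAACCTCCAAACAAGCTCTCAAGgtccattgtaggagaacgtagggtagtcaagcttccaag

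Gm24447: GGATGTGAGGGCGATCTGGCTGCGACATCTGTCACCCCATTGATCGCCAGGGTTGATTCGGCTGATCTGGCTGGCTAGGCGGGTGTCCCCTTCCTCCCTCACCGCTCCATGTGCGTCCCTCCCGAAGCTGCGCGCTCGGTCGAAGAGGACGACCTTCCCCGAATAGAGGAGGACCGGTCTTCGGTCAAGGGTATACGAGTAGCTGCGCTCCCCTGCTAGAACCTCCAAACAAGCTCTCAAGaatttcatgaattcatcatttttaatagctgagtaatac

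Gm24447 was identical to Rn7sk over its first 241 bases (241 of 241). Past this stretch the sequences part. Of the 35 loci named by the rule given with the methods, 1 further locus had a reference small nuclear RNA between its flanking genes. MSTRG.13125 on chromosome 3 shares that place with Gm24830, whose sequence holds, in capitals, the letters with which the U1 small nuclear RNA pairs to 5′ splice sites.

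Gm24830: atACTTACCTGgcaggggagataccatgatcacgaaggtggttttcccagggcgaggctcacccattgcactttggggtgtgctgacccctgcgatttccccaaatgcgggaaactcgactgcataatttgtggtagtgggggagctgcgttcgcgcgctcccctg

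The loci as a group took a larger share of the transcript bases in the GFP-positive libraries, and nearly all of that difference came from MSTRG.4500 and MSTRG.21471. The share was 7.42%, 8.76% and 10.005% in GFP-positive 2, 4 and 7, and 5.59%, 1.32% and 1.86% in GFP-negative 9, 11 and M. All GFP-positive libraries were above all GFP-negative ones, with GFP-negative 9 closest to them. The means were 8.73% ± 1.29 (SD, n = 3) and 2.92% ± 2.33, a difference of 5.81 percentage points. Without MSTRG.4500 the difference was 2.40 points. Without MSTRG.4500 and MSTRG.21471 the share was 0.493%, 0.493% and 0.568% in the GFP-positive and 0.568%, 0.434% and 0.401% in the GFP-negative libraries, and the groups overlapped.

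**Figure D1:**
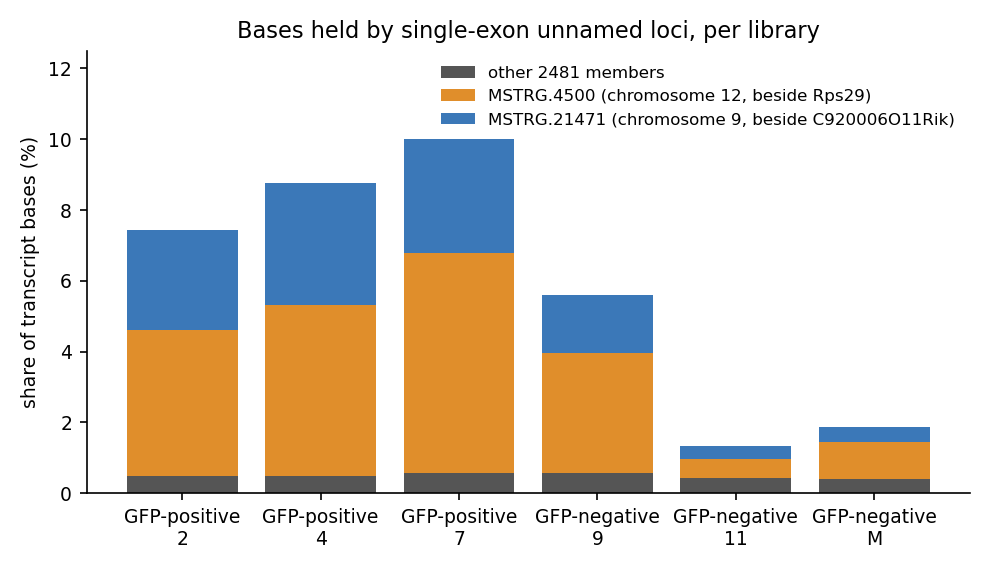
Share of transcript bases (coverage times length, percent of the sum over all transcripts) held by the 2483 single-exon unnamed loci in each of the 6 libraries, split into MSTRG.4500, MSTRG.21471 and the other 2481 loci. The other loci together stay between 0.401% and 0.568% in every library, while MSTRG.4500 and MSTRG.21471 set the height of the bars.

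MSTRG.21471, a locus of 575 nt on the minus strand of chromosome 9 (mm39, 78082423 to 78082997), reached 39135, 58006 and 50294 FPKM in GFP-positive 2, 4 and 7. FPKM here means the authors' fragments per kilobase relative to library depth, after scaling of the libraries. In GFP-negative 9, 11 and M it stood at 23325, 6245 and 5851 FPKM. It lies 168 bases upstream of C920006O11Rik and on the opposite strand. Its groups did not overlap, but the log2 difference of 2.36 (SE 0.96) did not pass limma's test (adjusted p = 0.0911). It passed without GFP-negative 9 (3.00, limma adjusted p = 0.0105).

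MSTRG.4500, of 1075 nt on the plus strand of chromosome 12 (69205634 to 69206708), overlaps the 5′ end of Rps29, a ribosomal protein gene on the minus strand (69204496 to 69205960). It stood at 30704, 43585 and 52040 FPKM in the GFP-positive libraries. The GFP-negative libraries had 25967, 4733 and 8083 FPKM. The log2 difference was 2.04 (SE 0.98, limma adjusted p = 0.138) and its sign turned under quantile normalization, to -0.12. Without GFP-negative 9 it passed (2.73, adjusted p = 0.0163). Rps29 itself rose, from a mean of 105.7 ± 48.5 FPKM to one of 359.0 ± 41.6 (log2 change 1.85, SE 0.37, limma adjusted p = 0.0115). The labels do not give the strand setting of the assembler. Reads of the locus and of the gene are therefore told apart only as far as that setting did so.

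The next 2 loci by abundance passed the test narrowly. MSTRG.17146, of 209 nt on the plus strand of chromosome 6 (69493331 to 69493539) among immunoglobulin kappa variable genes, stood at 2046, 2878 and 3051 FPKM in the GFP-positive libraries. It stood at 1699, 456.8 and 659.2 FPKM in the GFP-negative ones (log2 change 1.71, SE 0.56, limma adjusted p = 0.0482). MSTRG.7526, of 433 nt on the plus strand of chromosome 15 (93132055 to 93132487), rose from a mean of 516.5 ± 325.3 FPKM to one of 1447 ± 230.0 (log2 change 1.65, SE 0.48, limma adjusted p = 0.0345). Both calls were lost with no filter, with equal FPKM sums, with quantile normalization, with the length trend removed and without any 1 library other than GFP-negative 9, and that of MSTRG.17146 also with FPKM as deposited. Gxylt1, which encodes a xylosyltransferase and lies 5136 bases from MSTRG.7526, fell (log2 change -1.63, SE 0.38, limma adjusted p = 0.0169).

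The fifth most abundant locus, MSTRG.482, had no reference RNA between its flanking genes. It covers 390 nt on the minus strand of chromosome 1 (72603316 to 72603705), 18705 bases upstream of Smarcal1, which encodes a DNA-annealing helicase. It stood at 417.7, 393.3 and 477.4 FPKM in the GFP-positive libraries against 182.1, 32.03 and 51.7 FPKM in GFP-negative 9, 11 and M. The log2 change was 2.66 (SE 0.57, limma adjusted p = 0.0131), while Smarcal1 differed by 0.36 (adjusted p = 0.255). The call was lost with no filter (adjusted p = 0.0646), without GFP-positive 7 (0.0566) and without GFP-negative M (0.0639).

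MSTRG.7786 went the other way in a single library. It lies inside Zc3h7a, a zinc finger protein gene, on the opposite strand (chromosome 16, plus strand, 10961770 to 10962179), and stood at 1025 FPKM in GFP-negative 11 against 55.3 to 127.2 FPKM in the other 5 libraries. The groups overlapped and the log2 difference of -1.61 (SE 0.78) did not pass (limma adjusted p = 0.140). In the reference annotation the gene Gm23935 lies between the same flanking genes.

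Most loci were far below these. Of the 2483 loci, 61 were listed at 0 in all libraries and 1223 had a mean scaled FPKM of at least 0.5 and were tested. Only 33 had a mean of 10 FPKM or more and 7 a mean of 100 FPKM or more. The median tested locus had 1.20, 1.34 and 1.56 FPKM in GFP-positive 2, 4 and 7, against 0.579, 0.478 and 0.387 FPKM in GFP-negative 9, 11 and M. Set against named genes in the same library, the log2 level of the median locus stood at -1.60, -1.48 and -1.32 in the GFP-positive libraries and at -2.29, -2.57 and -2.67 in the GFP-negative ones. The groups did not overlap and their means differed by 1.05. The filter bears on this value, since 576 of the 1223 loci passed it only through their GFP-positive mean, and with no filter the difference was 0.58.

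Many more of the tested loci rose than fell in the GFP-positive libraries. Of the 1223, 540 rose (44.2%) and 49 fell (4.01%), against 16.6% of all 15294 tested features called higher and 13.7% called lower, or 30.3% in either direction. The median log2 difference was 1.02 for the loci and 0.03 for all features. Rises ran from 0.87 to 5.80 and falls from -0.83 to -2.36, and 23 rises were above 3. The groups did not overlap for 620 loci that were higher (against 24.4% of all features) and for 109 that were lower (against 23.2%).

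Other classes of transcript stood as follows in the same fit. Among 280 unnamed loci with spliced transcripts, 25 rose and 45 fell (median -0.42). Among 1454 named genes with 1 exon, 199 rose and 148 fell (median -0.16). Of all 13776 tested named genes, 1974 rose and 2001 fell.

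**Figure D2:**
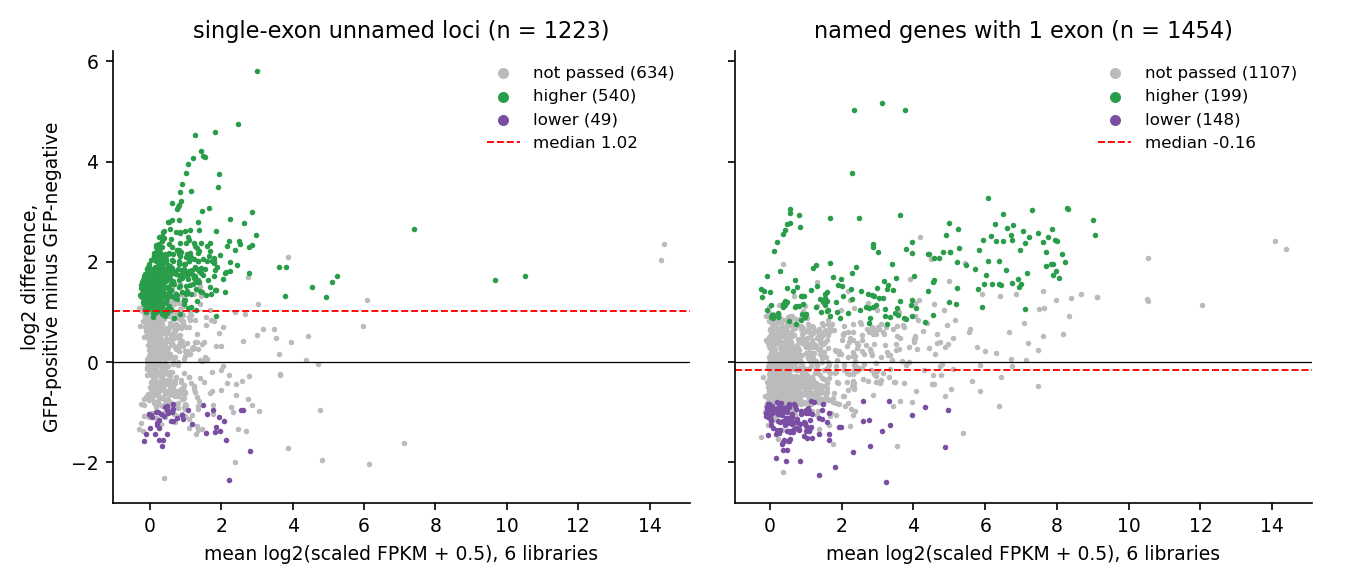
Log2 difference (GFP-positive minus GFP-negative, log2(scaled FPKM + 0.5)) against the mean log2 level over the 6 libraries, for 1223 tested single-exon unnamed loci (left) and 1454 named genes with 1 exon (right). Green points passed as higher and purple points as lower, and the dashed line is the median. The loci centre on 1.02 with 540 higher and 49 lower, the named genes on -0.16 with 199 and 148.

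The filter on low values favoured rises. Of the tested loci, 576 reached 0.5 FPKM only in the GFP-positive mean, and these had to be higher there. They held 400 of the 540 rises. Of the 567 loci at or above 0.5 FPKM in both group means, 140 rose and 28 fell, with a median of 0.36. The 80 loci that reached it only in the GFP-negative mean held 21 of the 49 falls. With no filter, 2422 loci were tested. Of these 246 rose (10.2%, against 3.12% of all features) and 11 fell (0.454%, against 2.14%), with a median of 0.28.

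The direction also followed length. Among 677 tested loci under 500 nt, 411 rose and 6 fell. Among 149 loci of 2000 nt or more, 2 rose and 23 fell. Named genes showed the same order. Of spliced named genes from 500 to under 1000 nt, 50.1% rose and 2.64% fell, while of those of 5000 nt or more 2.94% rose and 28.5% fell. With the trend in transcript length removed from each library, 146 of the loci rose (11.9%, against 8.52% of all features) and 74 fell (6.05%, against 9.07%), and the median was 0.28. The share of rises among the calls was 91.7% with the main scaling, 66.4% with the length trend removed and 55.6% with FPKM sums made equal between libraries. That last scaling put the median of all features at -0.85 and that of the loci at 0.31. With it 22.6% of the loci rose, against 3.96% of all features, and 18.1% fell, against 43.6%.

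**Figure D3:**
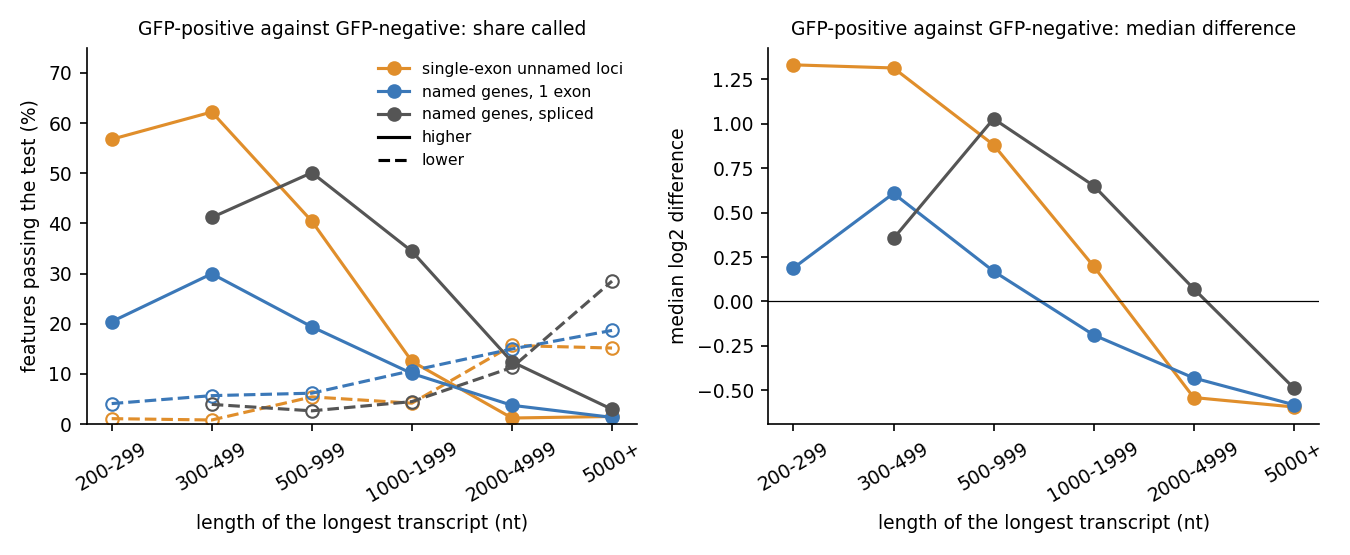
Percent of tested features called higher (solid) or lower (dashed) with GFP (left) and the median log2 difference (right), by length of the longest transcript in nt, for bins with at least 20 features. In single-exon unnamed loci the share called higher goes from 62.2% at 300 to under 500 nt to 1.52% at 5000 nt or more, and named genes with 1 exon go from 29.96% to 1.33% over the same bins. Spliced named genes go from 41.2% to 2.94%, and from 500 to under 1000 nt they stand above the loci (50.1% against 40.4%).

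The counts rested on particular libraries. Without GFP-negative M 150 loci rose (11.6%, against 2.52% of all features) and 3 fell (0.231%, against 0.983%). Without GFP-positive 7 196 rose (17.6%, against 3.98%) and 2 fell (0.180%, against 1.65%). Without GFP-negative 9 587 rose (46.3%, against 20.6%) and 65 fell (5.12%, against 19.7%). The falls also dropped to 14, 19 and 26 without GFP-positive 2, GFP-positive 4 and GFP-negative 11. These were 1.22%, 1.59% and 2.02% of the loci, and over all features the falls dropped as well, from 13.7% to 6.61%, 7.27% and 9.14%. With GFP-negative 11 and M both left out, a choice made after the data were seen, limma called none of 1319 tested loci, while 497 had an unadjusted p under 0.05 and the median was 0.85. On the first principal component of the loci (70.7% of the variance), the GFP-positive libraries lay at 22.98, 21.64 and 27.3 and GFP-negative 9, 11 and M at -17.32, -26.67 and -27.93. The filter favoured such a split, since 576 of the 1223 loci passed it only through their GFP-positive mean. Over all tested features the first component (64.9%) had the libraries at 66.56, 49.91 and 60.6 and at -20.56, -87.75 and -68.76.

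The 8 largest rises were short transcripts, 242 to 538 nt long, and 6 of the 8 lay 5 to 50 kb from the nearest named gene. All 8 passed when any 1 library was left out, which their choice as the largest called rises with groups apart favoured. MSTRG.22611 and MSTRG.18040 had a GFP-negative mean above 0.5 FPKM (0.645 and 0.612). The others passed the filter only through their GFP-positive mean. MSTRG.22611, of 326 nt on the minus strand of chromosome X (139386010 to 139386335), had 126.4, 36.9 and 43.8 FPKM in GFP-positive 2, 4 and 7, against 1.20, 0.171 and 0.560 FPKM in GFP-negative 9, 11 and M. The lowest GFP-positive library was far above the highest GFP-negative one (log2 change 5.80, SE 0.50, limma adjusted p = 0.00154). Prps1, which encodes a phosphoribosyl pyrophosphate synthetase and ends 9121 bases away, differed by 0.07 (adjusted p = 0.885). MSTRG.18040 (chromosome 7, minus strand, 18654170 to 18654411), 5402 bases upstream of the neuronal splicing factor gene Nova2 and on the opposite strand, stood at 44.2, 18.7 and 28.3 FPKM against 0.982, 0.302 and 0.553 FPKM (4.76, SE 0.37, adjusted p = 0.00132). MSTRG.638 on chromosome 1 stood at 33.3, 12.6 and 11.8 FPKM against 0.518, 0 and 0.254 FPKM (4.60).

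In GFP-positive 2 all 8 of these loci had their highest level. MSTRG.21626 (chromosome 9, 29987 bases upstream of Pik3cb, a phosphoinositide 3-kinase gene) stood at 17.6, 7.21 and 10.6 FPKM in the GFP-positive and at 0.0980, 0.221 and 0.0645 FPKM in the GFP-negative libraries (4.21). MSTRG.16495 (chromosome 5, 14343 bases upstream of the sorting nexin gene Snx8) had a log2 change of 4.12 and MSTRG.13508 on chromosome 3 one of 4.10. MSTRG.5871 lies inside Ckmt2, a mitochondrial creatine kinase gene, on its strand (chromosome 13, minus strand, 92005257 to 92005638). It stood at 15.9, 7.00 and 6.46 FPKM against 0.0544, 0 and 0.162 FPKM (4.06, SE 0.37, limma adjusted p = 0.00167). MSTRG.22591 on chromosome X was listed at 0 in all GFP-negative libraries and at 20.2, 10.9 and 6.03 FPKM in the GFP-positive ones. Over all 540 rises the highest library was GFP-positive 7 for 241, GFP-positive 2 for 181 and GFP-positive 4 for 118, and 16 were listed at 0 in the 3 GFP-negative libraries.

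Germ cell markers were also highest in GFP-positive 2, with a summed level of 164 FPKM there against 38.1 and 66.4 FPKM in GFP-positive 4 and 7. That order was the same in MSTRG.22611, MSTRG.18040, MSTRG.21626, MSTRG.16495 and MSTRG.13508. It was not the order of MSTRG.638, MSTRG.22591 and MSTRG.5871, in which GFP-positive 4 stood above GFP-positive 7. The marker sum is mostly that of Dazl, Mael and Tex101, while Stra8, a meiotic entry gene that did not pass, ran the other way at 0.0812, 3.598 and 10.92 FPKM in GFP-positive 2, 4 and 7. The part of germ cells in these rises was not tested.

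Other rises had the smallest adjusted p in their position class. MSTRG.13125, at the place of the U1-like gene shown above (chromosome 3, plus strand, 96230233 to 96230626), stood at 10.3, 14.7 and 17.1 FPKM against 0.607, 0.356 and 0.740 FPKM (log2 change 3.76, SE 0.29, limma adjusted p = 0.00132). MSTRG.12843 lies inside the relaxin receptor gene Rxfp1 on the opposite strand (chromosome 3, plus strand, 79578717 to 79579069) and stood at 5.89, 5.10 and 6.92 FPKM against 0.170, 0 and 0 FPKM (3.54, SE 0.27, adjusted p = 0.00132). MSTRG.19149, 2836 bases past the end of the elongation factor 2 kinase gene Eef2k and on the opposite strand, rose from 0.609 ± 0.149 to 8.82 ± 1.45 FPKM (3.07), while Eef2k differed by -0.75 (adjusted p = 0.172). MSTRG.20909, 58745 bases from Spata19 on chromosome 9, was listed at 0 in the 3 GFP-negative libraries and at 1.53, 0.912 and 1.58 FPKM in the GFP-positive ones, and its call was lost with the length trend removed. Without GFP-positive 2 or 7 it fell below the filter. MSTRG.22014, on a scaffold with no named gene, had a log2 change of 1.03 (adjusted p = 0.0428), a call lost with the length trend removed (0.26), with equal FPKM sums (0.23), with FPKM as deposited, with no filter and without any 1 library other than GFP-positive 4.

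The largest falls were smaller, and the largest one abutted a gene that fell as well. MSTRG.16903 covers 6878 nt on the minus strand of chromosome 6 (38664447 to 38671324) and abuts the 3′ end of Hipk2, a homeodomain-interacting protein kinase gene on the same strand (38671325 to 38853135). It stood at 1.49, 1.4997 and 1.69 FPKM in the GFP-positive and at 6.23, 16.5 and 9.81 FPKM in the GFP-negative libraries (log2 change -2.36, SE 0.34, limma adjusted p = 0.00627). Hipk2 stood at 1.81, 2.08 and 2.50 FPKM against 8.13, 17.4 and 10.9 FPKM (-2.21, SE 0.31, adjusted p = 0.00599). The locus and the gene had the same order of the GFP-negative libraries, lowest in 9 and highest in 11.

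MSTRG.20545 begins 233 bases past the 3′ end of Cmip, a signalling adaptor gene, on its strand (chromosome 8, plus strand, 118186456 to 118188251). It fell from a mean of 2.02 ± 1.23 FPKM to one of 0.214 ± 0.036 (log2 change -1.68, SE 0.41, limma adjusted p = 0.0192), and Cmip fell by 2.11 on the log2 scale (adjusted p = 0.0127). MSTRG.16373 lies 3279 bases upstream of Rhbdd2, a rhomboid domain gene, on the same strand, and both fell (-1.77 and -1.01). MSTRG.16373 stood at 0.943, 7.55 and 4.17 FPKM against 15.7, 15.6 and 7.69 FPKM, so that GFP-positive 4 almost reached GFP-negative M, and its call was lost with the length trend removed (adjusted p = 0.113), with no filter (0.165), with quantile normalization, at a pseudocount of 0.1, with limma without a trend and without any 1 library other than GFP-positive 4 (0.0780 to 0.103). MSTRG.15982, 1833 bases upstream of the interferon-inducible gene Oasl2, stood at 0.986, 3.50 and 2.45 FPKM against 7.98, 7.91 and 5.64 FPKM (-1.55), with Oasl2 at -0.23 (adjusted p = 0.757). The call of MSTRG.15982 was lost narrowly with the length trend removed (-1.31).

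The other named falls were short and had low levels. MSTRG.6852 and MSTRG.2184 lie inside the noncoding genes 1700128A07Rik and E230014E18Rik on the opposite strand, with log2 changes of -1.55 and -1.44, and MSTRG.16700 inside Gm20619 likewise (-1.56). MSTRG.6810, of 210 nt on chromosome 14, lies 238252 bases from Gm17882 (-1.57). It was listed at 0 in GFP-positive 2 and 7 and stood at 0.0665 FPKM in GFP-positive 4, against 0.372, 1.32 and 1.81 FPKM in the GFP-negative libraries. Of the 8 falls, MSTRG.16903, MSTRG.6852 and MSTRG.2184 passed with no filter. MSTRG.16903 passed when any 1 library was left out, whereas MSTRG.6852 and MSTRG.6810 did not pass without GFP-positive 7, MSTRG.2184 without GFP-negative M, and MSTRG.20545, MSTRG.15982 and MSTRG.16700 without either of those. MSTRG.20545 and MSTRG.6810 were also lost without GFP-positive 4, and MSTRG.16700 without GFP-positive 2 or 4 or GFP-negative 11. MSTRG.6810 fell below the filter without GFP-negative 11 or M, and MSTRG.2184 without GFP-negative 9 or 11.

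**Figure D4:**
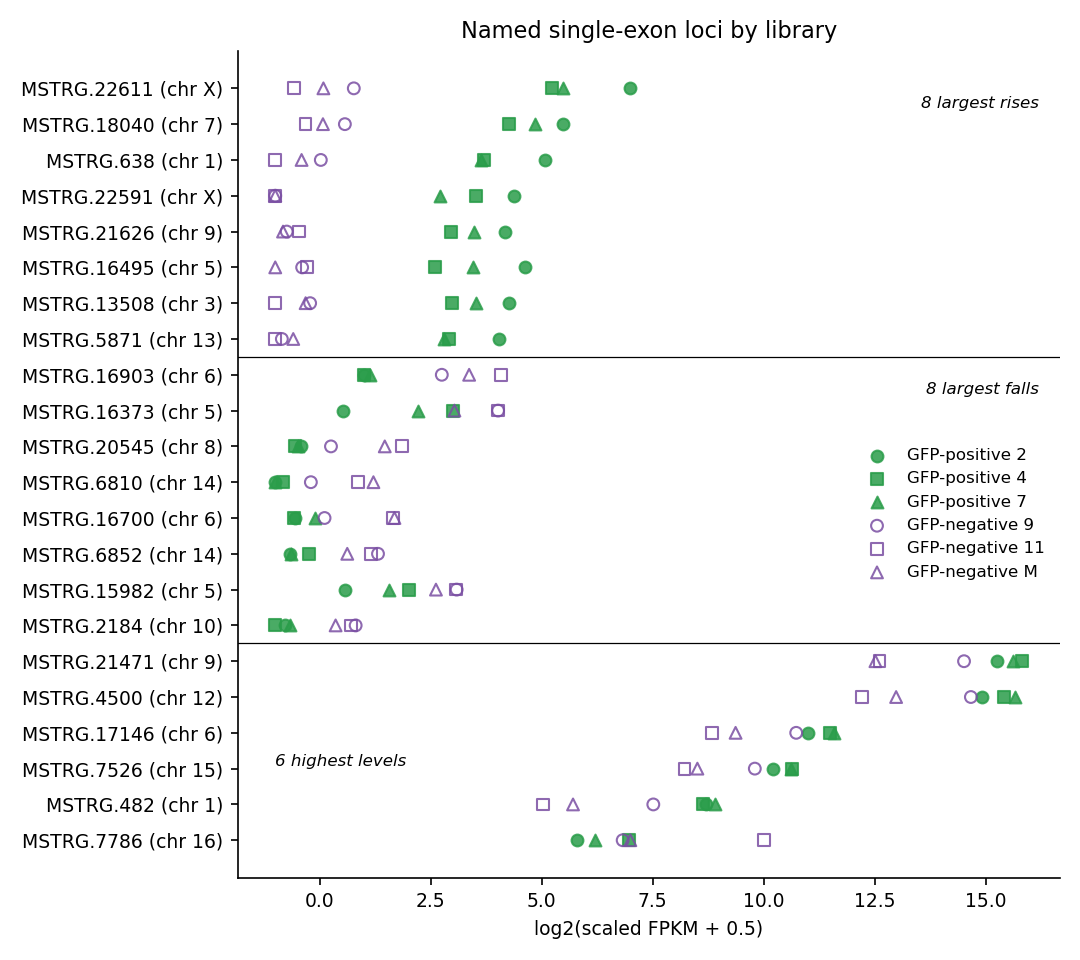
Level of 22 named single-exon loci in each library, as log2(scaled FPKM + 0.5), with GFP-positive libraries as filled green and GFP-negative libraries as open purple symbols. The groups stand apart for the 8 largest rises and 8 largest falls, which the choice of these loci requires. Among the 6 highest, GFP-negative 9 is the highest GFP-negative library in MSTRG.21471, MSTRG.4500, MSTRG.17146, MSTRG.7526 and MSTRG.482, and MSTRG.7786 stands at 1025 FPKM in GFP-negative 11.

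By position, 1067 of the 2480 loci on a sequence with a named gene overlapped one (43.0%). Of these, 291 were on the same strand and 773 only on the opposite strand. Another 193 lay on the same strand within 5 kb past a 3′ end, 11 of them at the very next base. A further 779 lay within 5 kb in another arrangement, 386 at 5 to 50 kb and 55 farther away. The median distance of the 1413 that overlapped none was 1909 bases, with quartiles of 419 and 7090 and a maximum of 257397.

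Rises outnumbered falls in each of these classes, and the share that rose was lowest beyond 50 kb and past 3′ ends. Of all tested features, 16.6% rose and 13.7% fell. The filter favoured rises here too, since 576 of the 1223 tested loci passed it only through their GFP-positive mean. Of loci 5 to 50 kb from a gene, 152 of 281 tested rose and 8 fell (median 1.25). Overlapping on the same strand, 66 of 159 rose and 10 fell (0.87), and on the opposite strand 122 of 292 rose and 11 fell (1.05). Past a 3′ end on the same strand, 41 of 140 rose and 10 fell (0.33), with a median length of 664 nt against 467 nt for all tested loci. Beyond 50 kb, 9 of 38 rose and 3 fell (-0.08). Whether the classes differ beyond length was not tested.

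**Figure D5:**
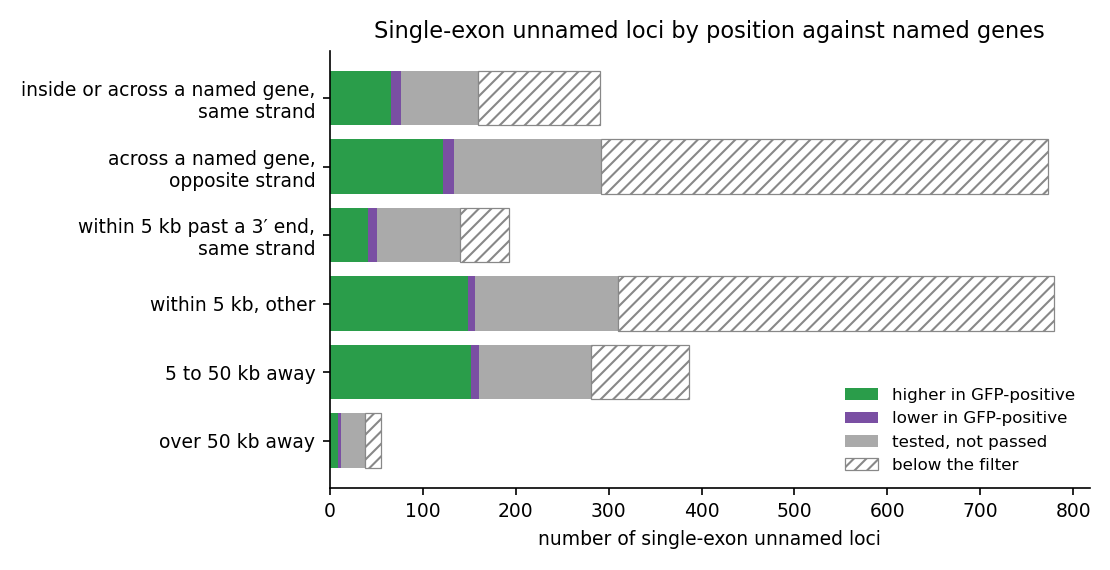
Number of single-exon unnamed loci by position against the nearest named gene, split into those called higher or lower, those tested that did not pass, and those below the filter of 0.5 FPKM. Of 773 loci across a gene on the opposite strand 292 were tested, and of 386 loci at 5 to 50 kb 281.

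A locus and its nearest gene mostly did not move alike. For 694 tested loci the nearest named gene was tested too (639 genes), and across these pairs Pearson's r of the log2 differences was 0.07 and Spearman's rho 0.06, a description over pairs from the same libraries. Among 293 of them where the locus rose, 34 genes rose, 69 fell and 190 did not pass. Over all 694 pairs, the gene rose in 69 and fell in 149. Past a 3′ end on the same strand r was 0.32 over 81 pairs. In that class, 7 loci fell beside a tested gene, and of their genes 3 fell, 2 rose and 2 did not pass. Over all 81 pairs of the class, the gene rose in 7 and fell in 13. The highest locus of the class, MSTRG.13470, begins at the base next to the 3′ end of Gm4617 and stood at 30.2, 22.5 and 23.6 FPKM against 32.4, 19.1 and 28.6 FPKM, with overlapping groups (-0.04, adjusted p = 0.915).

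The 4 longest tested loci lay inside long genes, on the gene's own strand. MSTRG.462, of 98145 nt, lies inside the receptor tyrosine kinase gene Erbb4 and had a log2 difference of -0.41 (limma adjusted p = 0.381). MSTRG.10810, of 39564 nt inside the RNA-binding protein gene Celf2, had -0.38 (adjusted p = 0.347). MSTRG.11232 inside Nr6a1, an orphan nuclear receptor gene, had -0.37 and MSTRG.7183 inside Asap1 -0.94 (adjusted p = 0.0680). None of these passed. At the same kind of position but with a high level, MSTRG.1234, of 661 nt inside the nitric oxide synthase adaptor gene Nos1ap, stood at 73.5, 121.6 and 125.6 FPKM against 83.1, 31.0 and 32.8 FPKM. GFP-negative 9 overlapped the GFP-positive libraries, and its difference of 1.23 did not pass (adjusted p = 0.0533), while Nos1ap stood under 1 FPKM in every library.

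Upstream of genes, 234 loci began within 1 kb of a gene's 5′ end and ran away from it on the opposite strand, an arrangement known from promoters that start RNA in both directions. Of these 80 passed the filter. There 25 rose (31.25%, against 16.6% of all features) and 1 fell (1.25%, against 13.7%), with a median of 0.56. RefSeq (GRCm38.p6) gave exactly 1 promoter for 150 of the 234 genes, as a window from 250 bases before to 50 after the start. The GC box GGGCGG was in 73.3% of these on either strand, against 67.8% of 7868 promoters of tested named genes and 35.2% of all 22862. The CCAAT box was in 40.7%, 40.4% and 38.2%, and TATAAA in 9.33%, 6.84% and 14.8%. The median number of CG dinucleotides was 25, 22 and 7. Matches of different motifs may share letters, and a match describes the letters only.

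Among such loci, MSTRG.16990 beside the zinc finger gene Zfp212, MSTRG.4536 beside Psma3 and MSTRG.12936 beside Rit1 had the smallest adjusted p with a single RefSeq promoter. They were picked by that p after the values were seen. MSTRG.16990 stood at 4.04, 4.12 and 4.17 FPKM against 0.344, 0.505 and 0.314 FPKM (log2 change 2.38, SE 0.25, limma adjusted p = 0.00306), while Zfp212, 460 bases away, differed by -0.76 (adjusted p = 0.0742). MSTRG.4536 begins 297 bases from Psma3, a proteasome subunit gene, and stood at 4.75, 1.68 and 2.56 FPKM against 0.118, 0 and 0 FPKM (2.61, SE 0.36, adjusted p = 0.00599). Psma3 rose as well (1.499, adjusted p = 0.0132). MSTRG.12936, 961 bases from the Ras-like GTPase gene Rit1, stood at 1.77, 1.64 and 1.27 FPKM against 0, 0.221 and 0 FPKM (1.86), and Rit1 rose by 0.88 (adjusted p = 0.0431). With the length trend removed MSTRG.12936 did not pass (adjusted p = 0.0504). The promoters of the 2 genes that rose with their locus are shown 5′ to 3′ on the plus strand of GRCm38.p6, with the boxes on either strand in capitals. That of Psma3 lies at chr12:70974373-70974672 and holds 3 CCAAT boxes, and that of Rit1 lies at chr3:88716604-88716903 and holds 4 GC boxes. The promoter of Zfp212, which is not shown, holds no match to the GC box, the CCAAT box or TATAAA.

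Psma3: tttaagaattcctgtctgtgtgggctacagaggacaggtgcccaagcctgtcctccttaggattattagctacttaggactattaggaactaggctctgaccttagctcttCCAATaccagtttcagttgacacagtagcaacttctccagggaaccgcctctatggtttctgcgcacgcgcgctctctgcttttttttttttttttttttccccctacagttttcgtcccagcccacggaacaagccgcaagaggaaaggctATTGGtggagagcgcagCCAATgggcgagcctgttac

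Rit1: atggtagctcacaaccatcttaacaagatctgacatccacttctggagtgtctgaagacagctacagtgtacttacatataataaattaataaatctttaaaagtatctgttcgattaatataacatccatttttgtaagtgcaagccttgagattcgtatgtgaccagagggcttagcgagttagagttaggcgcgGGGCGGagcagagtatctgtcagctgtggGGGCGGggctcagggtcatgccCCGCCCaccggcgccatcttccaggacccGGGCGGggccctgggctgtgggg

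Across chromosomes, the autosomes held 2409 loci (67 to 210 each), X 60, Y 9, the mitochondrial genome 2 and unplaced scaffolds 3. On X, 9 of 34 tested loci rose and 3 fell (median 0.09), while of 530 tested named X genes 123 rose and 53 fell. Besides the X-linked rises above, the third highest locus on X was MSTRG.22385, which begins at the base next to the 3′ end of Gm5940 (plus strand, 79501416 to 79502151). It stood at 3.40, 3.86 and 3.98 FPKM against 10.5, 6.16 and 7.07 FPKM and fell by 0.96 on the log2 scale (adjusted p = 0.0289), a call lost with no filter (adjusted p = 0.0673) and in each fit without 1 library apart from GFP-negative 9 and 11.

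On the Y chromosome, which carries the reporter, none of the 7 tested loci passed as higher in limma and 2 passed as lower, with a median log2 difference of -0.70, and 0 had a positive difference with an unadjusted p under 0.05. Of 22 tested named Y genes 10 rose (45.5%) and 0 fell. The shares over all tested features were 16.6% for rises and 13.7% for falls, and 7 loci are too few to set against these. All 9 Y loci are described here, 6 of them outside the rule for named loci. The 2 loci that fell lie close together near the end of the chromosome. MSTRG.22797 (plus strand, 90734908 to 90735496) stood at 0.150, 0.324 and 0.661 FPKM against 1.66, 2.77 and 1.22 FPKM (log2 change -1.43, SE 0.35, limma adjusted p = 0.0191). MSTRG.22802 (plus strand, 90775214 to 90776224), 248 bases past the end of Mid1-ps1, stood at 1.03, 2.54 and 1.54 FPKM against 3.702, 2.92 and 5.13 FPKM (-1.03, SE 0.33, adjusted p = 0.0461). The call of MSTRG.22802 was lost without GFP-positive 2 or 7 and without GFP-negative 9 or M, and that of MSTRG.22797 without any 1 GFP-positive library and without GFP-negative M (adjusted p from 0.0508 to 0.0574). Neither passed with no filter, and MSTRG.22802 did not pass with quantile normalization. Mid1-ps1 itself differed by -0.79 (adjusted p = 0.111).

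The other Y loci had mixed orders. MSTRG.22792, the highest, had 9.99, 1.90 and 1.68 FPKM in GFP-positive 2, 4 and 7, against 4.37, 1.95 and 5.95 FPKM in GFP-negative 9, 11 and M. Its groups overlapped (-0.16, adjusted p = 0.854). MSTRG.22793 stood at 0.224, 2.44 and 1.42 FPKM against 4.39, 3.89 and 2.18 FPKM (-1.27, adjusted p = 0.0831). MSTRG.22791 and MSTRG.22795 differed by -0.70 and -0.59 (adjusted p = 0.185 and 0.315), and MSTRG.22788 was the only tested Y locus with a positive difference (0.48, adjusted p = 0.391). MSTRG.22794 was listed at 0 in all libraries, and MSTRG.22799 was below the filter.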

How the data were processed

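Each of the 6 libraries has 1 deposited table of the same 153503 transcripts. Trimmomatic, HISAT2 and StringTie are named without versions, with the build mm39, per the submitters' processing notes. The libraries that entered the assembly are not stated. Per the file headers, the authors' FPKM and mean per-base coverage are given per transcript. Bases were taken as the deposited coverage times length. No read counts were used, so the depth behind a single value is unknown.

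FPKM was summed per gene name or, for unnamed loci, per assembly identifier (53135 features, with 1425 transcripts assigned to none). Scaling used median ratios over 12678 features with a mean FPKM of at least 1. Features with a longest transcript of at least 200 nt and a mean scaled FPKM of at least 0.5 (15294) entered limma 3.58.1 (R 4.3.3, eBayes with a trend) on the scale log2(scaled FPKM + 0.5). The contrast was GFP-positive minus GFP-negative, Benjamini-Hochberg adjustment ran over all of these features, and calls were made at 0.05. For low features this scale gives too small a fold change. The procedure was tested on simulated data. Values are scaled FPKM, as mean ± SD over 3 libraries.

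Distance is the number of bases between facing ends to the nearest transcript that carries a gene name. Names follow a rule: the 8 largest rises and falls among called loci with groups apart, the 6 highest means, the 3 highest on X and on Y, and per position class the smallest adjusted p and the highest mean, leaving out chromosome 18. Loci outside it were chosen after their values were seen. The loci, lists and tests were chosen with earlier results of these data known. RNA sequences are from GENCODE M21 and promoters from RefSeq, both on GRCm38, matched by name and gene order only. The reference RNAs at the places of MSTRG.4500 and MSTRG.17146 are not reported here. Tables were read with pandas 2.3.3 in Python 3.11.15, and matplotlib 3.10.9 drew the figures. Alternatives varied the pseudocount, filter, scaling, length correction, variance model, library weights, threshold, set of loci and libraries.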

Additional observations from a re-analysis of the deposited data

How the results depend on the processing

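The number of loci that rose (540) was 246 with no filter, 281 with a mean of at least 1 FPKM, 255 with equal sums of FPKM, 146 with the length trend removed, 899 with limma's arrayWeights, 176 at a threshold of 0.01 and 352 over loci that overlap no named gene. The number that fell (49) was 11, 28, 204, 74, 194, 1 and 28 in the same order. With arrayWeights 73.5% of the loci rose, against 41.5% of all features, and 15.9% fell, against 38.6%. With a mean of at least 1 FPKM 48.4% rose, against 16.9% of all features, and 4.83% fell, against 15.4%. Leaving out 1 library gave 150 to 587 rises and 2 to 65 falls. The rises were 11.6% to 46.3% of the loci, against 2.52% to 20.6% of all features. The falls were 0.180% to 5.12%, against 0.983% to 19.7%. Without GFP-negative 11 and M, added after the data were seen, limma called 0 in each direction, with 497 at an unadjusted p under 0.05. The fit of arrayWeights did not fully converge. The median log2 difference (1.02) was 1.61 and 0.73 at pseudocounts of 0.1 and 1, 0.28 with no filter, 1.25 at a mean of 1 FPKM, 0.31 with equal sums, 0.28 with the length trend removed, 0.85 without GFP-negative 11 and M, and 0.89 to 1.13 with 1 library left out. The difference between groups in the locus median relative to named genes (1.05) was 1.47 and 0.79 at those pseudocounts, 0.58 with no filter, 1.22 with equal sums, and 0.93 to 1.20 with 1 library left out. The difference in the share of bases (5.81 points) was 2.40 without MSTRG.4500, 2.41 over loci that overlap no named gene, 0.0501 without MSTRG.4500 and MSTRG.21471 (added after the data were seen), and 5.004 to 7.14 with 1 library left out. The median log2 difference, the difference relative to named genes and the difference in the share of bases stayed positive in the settings given. A count cannot change sign. Fewer loci or a stricter threshold lower a count by construction, and the cause of the other changes was not tested. MSTRG.4500 turned to -0.12 under quantile normalization. Loci that had not passed turned sign when a library was left out: MSTRG.22792 ranged from -0.87 to 0.26, MSTRG.13470 from -0.30 to 0.11, and MSTRG.13977 from -1.63 to 0.075. No paired analysis was possible because the groups share no replicate number (2, 4 and 7 against 9, 11 and M).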

Other observations

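A group of 4 loci on chromosome X rose within 200 kb of each other, picked after their values were seen apart from MSTRG.22591. MSTRG.22589, MSTRG.22590 and MSTRG.22592 lie 324, 325 and 326 bases upstream of the predicted genes Gm14992, Gm14996 and Gm15005 and on the opposite strand, and MSTRG.22591 lies 443 bases past Gm15005. MSTRG.22589 (X, plus strand, 135281496 to 135281779) had levels of 13.8, 5.87 and 5.70 FPKM in GFP-positive 2, 4 and 7, against 0, 0 and 0.111 FPKM in GFP-negative 9, 11 and M (log2 change 3.95, limma adjusted p = 0.00187). MSTRG.22590 stood at 6.13, 1.82 and 3.01 against 0.144, 0 and 0 FPKM (2.80, adjusted p = 0.00599). MSTRG.22592 stood at 2.86, 1.08 and 1.65 against 0.0701, 0 and 0 FPKM (2.11, adjusted p = 0.00687), and did not pass with the length trend removed (1.18, adjusted p = 0.0592). MSTRG.22591 had the largest difference of the 4 (4.53, adjusted p = 0.00154). The 3 predicted genes themselves were listed at 0 in every library. Whether the 4 loci share sequence, and so reads, was not tested.

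The 2 loci on the mitochondrial genome, MSTRG.22018 and MSTRG.22029, have no strand and were listed at 0 in all libraries. MSTRG.13977, the highest locus over 50 kb from a gene, had 0.229, 5.53 and 3.31 FPKM with GFP against 12.9, 1.14 and 3.95 FPKM without, and the groups overlapped. MSTRG.13096, inside the carbonic anhydrase gene Car14 with no strand given, stood at 0.333, 0.506 and 0.250 against 0.933, 0.525 and 0.806 FPKM and did not pass (adjusted p = 0.173).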
